A study of Danio rerio with 12 samples.

Results

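Interferons are cytokines that cells release on sensing viral nucleic acid, and 41 zebrafish genes of this system were described in kidneys. They comprise sensors of viral RNA, the receptors and signalling factors of the response, and the antiviral effectors it switches on. The genes were chosen by symbol, with earlier genotype differences of these same kidneys already known, so every genotype value below is a description and gives no independent support. All 41 were found among the 30238 gene rows, and irf2 was found under its former symbol (now irf2b). RNA was sequenced from the whole kidney of 3 wild-type samples and 9 samples labelled as heterozygous pdx1 knockouts. The gene pdx1 encodes a transcription factor of the pancreas and its insulin-producing cells. The labels gave neither the mutant allele nor sex, age, infection status or pooling, and did not say whether a sample was a single fish, so a p-value here reflects no more than the spread from sample to sample, which may be technical.

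Several routes of sensing feed this system in vertebrates. RNA helicases of the RIG-I family detect viral RNA in the cytosol and signal through the mitochondrial adaptor MAVS, while STING relays the detection of DNA, and both routes reach the kinase TBK1 and interferon regulatory factors (IRFs) that switch on interferon genes. Released interferon binds receptors coupled to the JAK1 and TYK2 kinases, and a complex of STAT proteins and IRF9 then activates many effector genes. In teleost fish the kidney is also the main blood-forming organ, so leukocytes, which respond readily to interferon, contribute to RNA from the whole kidney.

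Totals lay between 16041392 and 19483852 estimated counts per library, and a floor of 3 counts was worth 0.156 to 0.184 CPM (counts relative to the scaled library size). The mutated gene was near the detection limit, with 6 to 14 counts of pdx1 in the wild-type libraries and 0 to 10 in the heterozygous ones, 5 of which had 0. Counts of the annotated ribosomal RNA gene took shares that did not overlap between the groups, 4.101% to 5.64% in wild type and 5.71% to 9.10% in heterozygous libraries. Within both genotypes, libraries fell into separate ranges of ddc, which encodes aromatic amino acid decarboxylase. It was between 4332 and 6469 CPM in 5 heterozygous libraries (replicates 1, 3, 4, 6 and 9) and wild-type replicate 2, and between 111 and 220 CPM in the other 6. Kidney tubule markers were abundant throughout, with 10 genes summing to 4929 to 8078 CPM. Reads that fit several transcripts were divided by the quantification, and 20 of the 41 interferon-system genes had estimated counts that were off whole numbers by more than 0.001 in all 12 libraries, mavs, tbk1 and jak1 among them. Over all gene rows, the share with such counts was 42.2% to 43.7% per library. Such values occurred in at least 1 library for all 6 Mx and GBP genes and for 3 of the 4 IFIT genes, and levels of genes that share reads are uncertain.

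Levels per transcript length differed widely between these genes. In TPM, a measure corrected for transcript length and library size, irf1b, an interferon regulatory factor gene, had the highest mean over the 12 kidneys at 218 TPM. Among the other genes named here, the next were ifi27.2 at 56.4, gbp1 at 55.9 and mavs at 52.3 TPM. A mean of at least 10 TPM was reached by 23 of the 41 genes, and 4 had less than 1 TPM, namely irf1a, rsad2, mxb and ifit14. The lowest, ifit14, had a mean of 0.176 TPM and did not pass the filter on low counts, which left 40 genes in the comparison of genotypes.

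**Figure D1:**
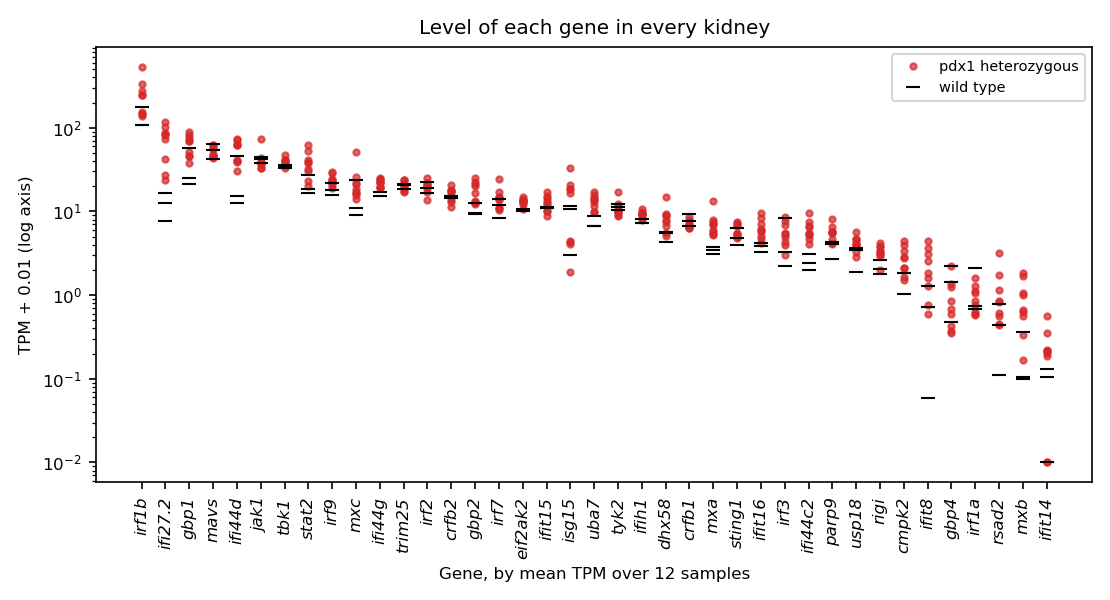
Level of the genes reported here in every kidney, in TPM + 0.01 on a log axis, ordered by mean TPM over 12 samples. Red points are the 9 pdx1 heterozygous samples and black bars the 3 wild-type samples. The order runs from irf1b at a mean of 218 TPM to ifit14 at 0.176 TPM.

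Most interferon-system genes had higher levels in heterozygous than in wild-type kidneys, and none of them passed the test across all genes. More cells of a type and more RNA per cell cannot be told apart in whole-kidney RNA. Among the 21 tested effector and ISG15-system genes, 20 had higher levels, with a median log2 fold change of 0.79. Among the 19 sensor and signalling genes, 16 had higher levels, with a median of 0.28. Of the 40 genes compared, 36 had a log2 fold change above 0, against 51.7% of all 23732 genes tested, with a median of 0.55 against 0.01. None passed an adjusted p of 0.05 in the edgeR quasi-likelihood test, where 1 gene in all did (0.00421%), and their adjusted p lay at or above 0.337. At an unadjusted p under 0.05, 23 of the 40 were higher and 0 lower, where 3.14% of all genes were higher. In DESeq2, 4 of the 40 were called, all higher (ifi27.2, ifi44c2, uba7 and mxa, adjusted p = 0.000116, 0.000581, 0.00149 and 0.0323), against 0.177% of all genes called higher. Every heterozygous sample lay above every wild-type sample for 9 genes (ifih1, tbk1, uba7, mxa, gbp2, ifi27.2, ifi44c2, ifi44g and ifit16), against 0.695% of all genes, and the reverse held for 0.

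By role, the median log2 fold change was highest for the ifi27 and ifi44 genes, at 1.28 over 4 genes, and 0.86 over the 6 Mx and GBP genes. It was 0.79 over 3 IFIT genes, 0.76 over the 4 other effectors, 0.64 over the 3 RNA sensors and 0.62 over the 4 genes of the ISG15 system. The 9 STAT and IRF genes had a median of 0.39, the 3 adaptor and kinase genes 0.22, and the 4 receptor and JAK kinase genes 0.02. These differences between role groups were not tested. When the ribosomal RNA level entered as a covariate, the median over the 40 genes was 0.26 in place of 0.55. Ribosomal RNA shares were higher in every heterozygous library than in any wild-type one. The covariate can therefore take up genotype difference, and the parts of ribosomal RNA and genotype cannot be told apart. In that fit ifi27.2 was at 1.92, ifi44c2 at 1.04, mxa at 0.83 and uba7 at 0.63 on the log2 scale, while rsad2 was at 0.23 and stat2 at 0.13. The count of genes without overlap was 15 with wild-type replicate 1 left out and again 15 with replicate 2 left out, where 1.93% and 3.49% of all genes had none. On TPM in place of CPM it was 5 (uba7, mxa, ifi27.2, ifi44c2 and ifi44g), against 0.383% of all genes. The groups of ifih1, tbk1, gbp2 and ifit16 overlapped on that scale.

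**Figure D2:**
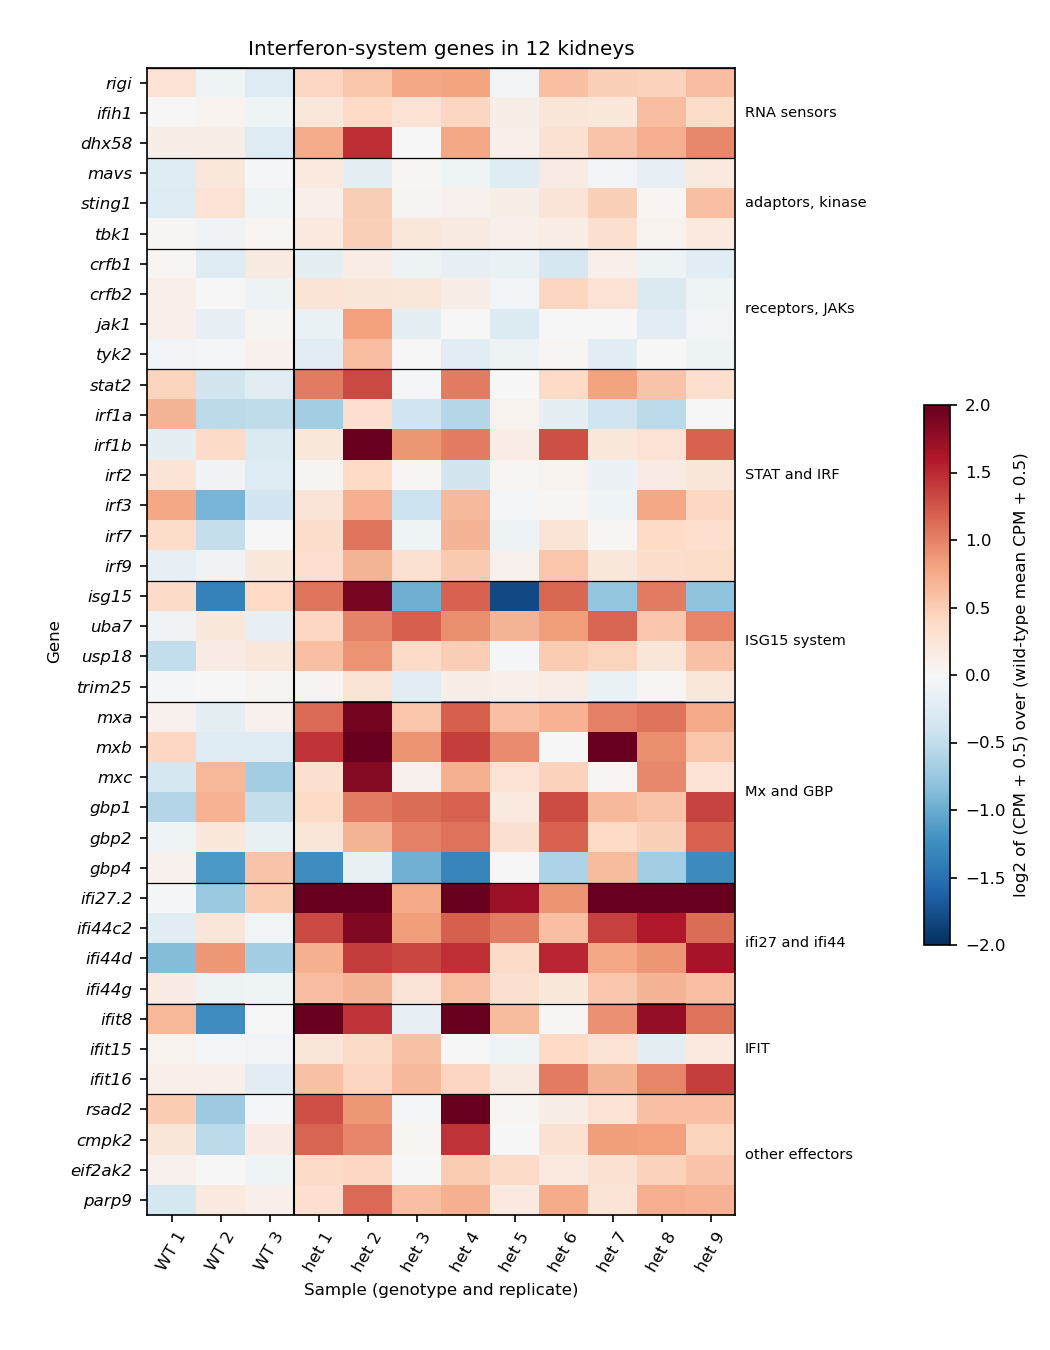
Level of the tested genes reported here in each kidney relative to the wild-type mean, as log2 of (CPM + 0.5) over (wild-type mean CPM + 0.5), with colours limited to 2 in either direction. Columns are samples and rows are genes grouped by role. Over the 40 tested genes, including those not shown, heterozygous replicate 2 was the highest heterozygous sample for 22 and replicate 5 the lowest for 15.

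**Figure D3:**
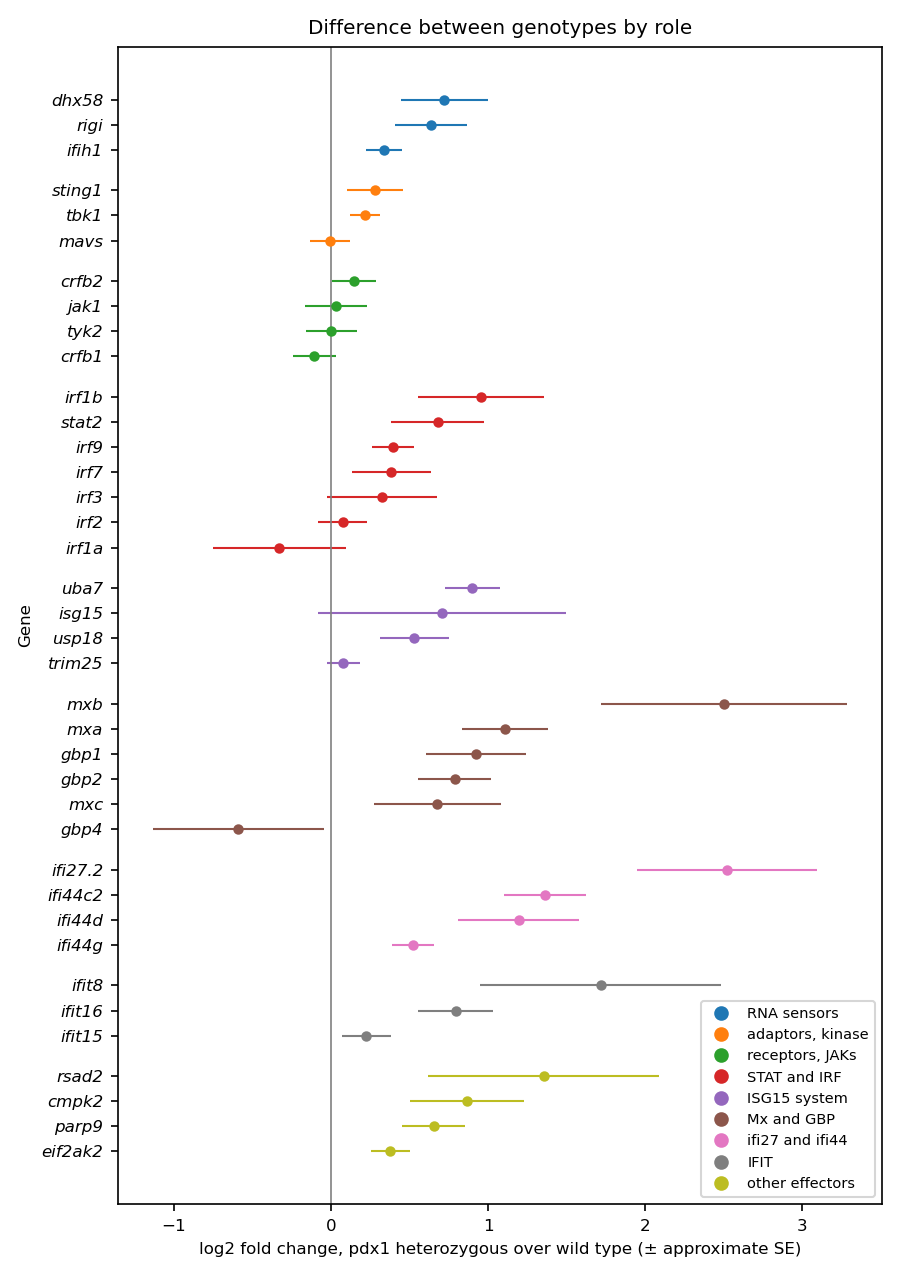
Log2 fold change of the tested genes reported here, pdx1 heterozygous over wild type, with approximate standard errors as bars and colours for role groups. Of the 40 tested genes, including those not shown, 36 had a log2 fold change above 0. Receptor and JAK kinase genes lie close to 0, with a median of 0.02.

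The 3 RNA sensor genes had higher mean levels in heterozygous kidneys, and their differences were smaller in the fit with the ribosomal RNA covariate. Transcripts of ifih1, which encodes MDA5, a sensor of long double-stranded RNA, were at 19.4, 20.3 and 18.1 CPM in wild-type replicates 1 to 3. The heterozygous samples had 21.1 CPM at lowest, a median of 23.6 and 29.9 at highest. The groups did not overlap in CPM but did in TPM, and the log2 fold change was 0.34 ± 0.11 (approximate SE; edgeR, adjusted p = 0.757). For rigi, the RIG-I gene, wild-type levels were 2.57, 1.87 and 1.62 CPM, and heterozygous levels ranged from 1.92 to 3.84 CPM with a median of 3.19. Of the 9 heterozygous samples, 8 exceeded every wild-type sample, with replicate 5 the exception, and the log2 fold change was 0.64 ± 0.23. The third sensor gene, dhx58, encodes the related helicase LGP2. Its range was 9.96 to 28.6 CPM in heterozygous against 8.26 to 10.8 CPM in wild-type samples, and 7 of 9 heterozygous samples exceeded every wild-type sample (0.72 ± 0.28). In the fit with the ribosomal RNA covariate, which goes with genotype, the log2 fold changes were 0.155 for rigi, 0.19 for ifih1 and 0.081 for dhx58.

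The adaptor and kinase genes behind these sensors had smaller differences. The kinase gene tbk1 had 79.6, 74.9 and 80.4 CPM in wild type and 82.5 to 110 CPM, with a median of 89.3, in heterozygous samples. Its groups did not overlap in CPM but did in TPM, at a log2 fold change of 0.22 ± 0.10 (edgeR, adjusted p = 0.858). For mavs, the mitochondrial adaptor downstream of RIG-I and MDA5, the wild-type samples spanned 149 to 207 CPM. All 9 heterozygous samples, from 149 to 204 CPM, lay within that span, with a log2 fold change of -0.01 ± 0.13. The level of sting1, the adaptor of DNA sensing, was 5.09, 7.66 and 5.83 CPM in wild type and 6.40 to 9.67 CPM in heterozygous samples, and the ranges overlapped (log2 fold change 0.28 ± 0.18; 0.16 and 0.47 without wild-type replicates 1 and 2).

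The receptor and Janus kinase genes all overlapped between the genotypes. In zebrafish crfb1 and crfb2 encode chains of separate type I interferon receptors. The level of crfb1 was 12.2, 9.93 and 13.7 CPM in wild type and 9.35 to 13.4 CPM in heterozygous samples (log2 fold change -0.10 ± 0.13; -0.21 and -0.0017 without wild-type replicates 2 and 3). That of crfb2 was 31.2, 29.3 and 27.09 CPM in wild type and 23.8 to 39.4 CPM in heterozygous samples (0.15 ± 0.14). The kinase gene jak1 had 131, 109 and 128 CPM in wild type, and its heterozygous median was 118 CPM. Heterozygous replicate 2 stood apart at 218 CPM, with 124 CPM in the next sample. The same library was highest for tyk2, at 66.1 CPM against a heterozygous median of 39.8. The log2 fold changes of jak1 and tyk2 were 0.03 ± 0.20 and 0.00 ± 0.16, and without heterozygous replicate 2 both were below 0, at -0.10 and -0.09.

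Among the transcription factor genes, irf9 and stat2, whose products act in the complex that interferon activates, had higher mean levels in heterozygous kidneys, while irf2 and irf1a did not differ beyond their error. For irf9 the wild-type levels were 21.5, 22.9 and 27.7 CPM, and the heterozygous levels ran from 25.4 to 38.7 with a median of 30.7 CPM. Of 9 heterozygous samples, 8 exceeded every wild-type sample, with a log2 fold change of 0.39 ± 0.13 (edgeR, adjusted p = 0.773). Its partner gene stat2 was at 84.5, 47.7 and 53.0 CPM in wild type and 60.7 to 155 CPM in heterozygous samples. The ranges of stat2 overlapped, and 5 of 9 heterozygous samples exceeded every wild-type sample (log2 fold change 0.68 ± 0.30). The most abundant of the 41 genes, irf1b, was at 156, 233 and 145 CPM in wild type and at 197 to 746 CPM, with a median of 331, in heterozygous samples. Replicate 2 held the top value, and 5 of 9 heterozygous samples exceeded every wild-type sample (0.96 ± 0.40). The log2 fold changes of irf7 and irf3, which drive interferon genes in mammals, were 0.39 ± 0.25 and 0.33 ± 0.35. Without wild-type replicate 1 they were 0.62 and 1.002, and without wild-type replicate 2 they were 0.197 and 0.014. Those of irf2 and irf1a were 0.07 ± 0.16 and -0.33 ± 0.42, but irf1a was at 0.47 without wild-type replicate 1, and it had few reads, with a mean of 0.989 TPM.

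The ISG15 system attaches a ubiquitin-like protein to other proteins. In mammals UBA7 is its activating enzyme, USP18 removes it, and TRIM25 is a ubiquitin ligase that acts on RIG-I. The activating enzyme gene uba7 was at 18.8, 23.0 and 17.5 CPM in wild type and at 26.5 to 46.0 CPM, with a median of 38.3, in heterozygous samples. The ranges did not meet, with a log2 fold change of 0.90 ± 0.18 (edgeR, adjusted p = 0.342). For usp18 the values were 2.63, 4.43 and 4.64 CPM against 3.85 to 7.72 CPM with a median of 5.71 (0.53 ± 0.22; 0.32 without wild-type replicate 1), and 8 of 9 heterozygous samples exceeded every wild-type sample. The level of trim25 was 48.2, 49.4 and 51.4 CPM against 42.8 to 60.3 CPM (0.08 ± 0.11), with heterozygous samples on both sides of the wild type. The modifier gene isg15 itself spread far more than its enzymes. It was at 8.53, 2.21 and 8.63 CPM in wild type and at 1.496 to 25.4 CPM, with a median of 13.8, in heterozygous samples (0.71 ± 0.79). Of 9 heterozygous samples, 5 exceeded every wild-type sample for isg15, at 13.8 CPM or more, and the others had 3.56 CPM or less. Without wild-type replicate 2 the log2 fold change of isg15 was 0.31, and without heterozygous replicate 2 it was 0.44.

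Mx proteins are dynamin-like GTPases that block virus replication, and guanylate-binding proteins (GBPs) are interferon-induced GTPases of cell-autonomous immunity. The level of mxa was 7.37, 5.96 and 7.39 CPM in wild type and 10.4 to 27.38 CPM, with a median of 14.4, in heterozygous samples. All heterozygous samples were above all wild-type samples, with a log2 fold change of 1.11 ± 0.27 (edgeR, adjusted p = 0.525). Its neighbour mxb, with no gene between them in the RefSeq gene order, had 0.468, 0.114 and 0.108 CPM in wild type and 0.223 to 2.82 CPM in heterozygous samples (2.502 ± 0.78; 1.27 with the ribosomal RNA covariate). Of 9 heterozygous samples, 8 exceeded every wild-type sample for mxb, whose lowest library held 2 counts. The third Mx gene, mxc, spanned 19.1 to 49.9 CPM in wild type and 32.2 to 112 CPM in heterozygous samples, and the ranges overlapped (0.68 ± 0.40). Without wild-type replicates 2 and 3 in turn its log2 fold change was 1.202 and 0.41, and without heterozygous replicate 2 it was 0.43.

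Of the 3 GBP genes, gbp1 and gbp2 had higher levels in heterozygous kidneys, and gbp4 did not differ beyond its spread. Wild-type levels of gbp2 were 21.0, 25.9 and 20.02 CPM. Its heterozygous levels were 26.4 to 51.1 CPM with a median of 36.2 (0.79 ± 0.23; edgeR, adjusted p = 0.694). The groups did not overlap for gbp2 in CPM but did in TPM. For the more abundant gbp1, wild-type replicate 2 stood at 96.9 CPM against 39.7 and 43.0 CPM in replicates 1 and 3. Heterozygous samples had 68.6 to 153 CPM of gbp1 with a median of 123, and 5 of 9 exceeded every wild-type sample (0.92 ± 0.32). Without wild-type replicate 2 its log2 fold change was 1.47. The level of gbp4 was 2.69, 0.851 and 3.94 CPM in wild type and 0.699 to 4.13 CPM, with a median of 1.35, in heterozygous samples, a log2 fold change of -0.59 ± 0.55 that was -0.99 without wild-type replicate 2 and -0.098 without replicate 3. The ranges of gbp4 overlapped, and 3 heterozygous samples lay below the lowest wild type.

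The ifi27 and ifi44 families are interferon-induced genes whose products are less well understood. The highest log2 fold change of the 40 was that of ifi27.2, at 6.66, 3.86 and 9.82 CPM in wild type and 11.8 to 64.9 CPM, with a median of 46.5, in heterozygous samples. The wild-type mean was 6.78 ± 2.98 CPM (SD, n = 3), the heterozygous mean 38.9 ± 18.7 CPM (SD, n = 9), with a log2 fold change of 2.52 ± 0.57 (edgeR, adjusted p = 0.514). For ifi44c2 the wild-type samples had 3.27, 4.71 and 3.72 CPM and the heterozygous samples 6.18 to 15.4 CPM with a median of 9.61 (1.36 ± 0.26; edgeR, adjusted p = 0.337). Both genes separated the genotypes in all 12 samples. The same was true of ifi44g, at 16.7 to 20.3 CPM in wild type and 20.9 to 29.1 CPM in heterozygous samples. It was not true of ifi44d, where wild-type replicate 2 had 56.2 CPM against 16.6 and 18.8 CPM in the others and heterozygous samples had 40.1 to 96.4 CPM (1.19 ± 0.39; 1.99 without that replicate).

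IFIT proteins bind viral RNA in mammals. The genes ifit14, ifit15 and ifit16 follow each other in the RefSeq gene order with no gene between, and their levels differed. The level of ifit16 was 6.90, 6.92 and 5.40 CPM in wild type and 7.32 to 17.6 CPM, with a median of 10.3, in heterozygous samples. Its groups did not overlap in CPM but did in TPM (0.79 ± 0.24; edgeR, adjusted p = 0.694). The middle gene, ifit15, had 15.6, 14.7 and 14.3 CPM in wild type and 13.1 to 22.5 CPM in heterozygous samples. The groups of ifit15 overlapped (0.23 ± 0.16). For ifit14 the highest value in any kidney was 0.551 CPM, in heterozygous replicate 2, and no fold change was computed. The fourth IFIT gene, ifit8, was at 1.58, 0.0568 and 0.810 CPM in wild type and at 0.672 to 5.12 CPM, with a median of 2.29, in heterozygous samples. Its log2 fold change of 1.72 ± 0.77 rests in part on wild-type replicate 2, which held 1 count. Without that library it was 1.18, and without wild-type replicate 1 it was 2.61.

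Of the other effectors, parp9, which encodes an ADP-ribosyltransferase family protein, was at 7.60, 11.2 and 10.5 CPM in wild type and 11.2 to 22.1 CPM, with a median of 16.1, in heterozygous samples. In 8 of 9 heterozygous samples it exceeded every wild-type sample (0.65 ± 0.20; edgeR, adjusted p = 0.706). The gene eif2ak2 encodes PKR, a kinase that halts translation on binding double-stranded RNA. It had 16.5, 15.6 and 14.6 CPM in wild type and 15.6 to 23.5 CPM, with a median of 20.6, in heterozygous samples. Again 8 of 9 exceeded every wild-type sample (0.38 ± 0.12; edgeR, adjusted p = 0.738). The neighbouring genes rsad2 and cmpk2 encode viperin, which makes an antiviral nucleotide in mammals, and a mitochondrial nucleotide kinase. Their log2 fold changes were 1.35 ± 0.74 and 0.87 ± 0.36, and both were low, with means of 0.922 and 2.44 TPM. For rsad2 it was 2.104 without wild-type replicate 1 and 0.895 without replicate 2.

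**Figure D4:**
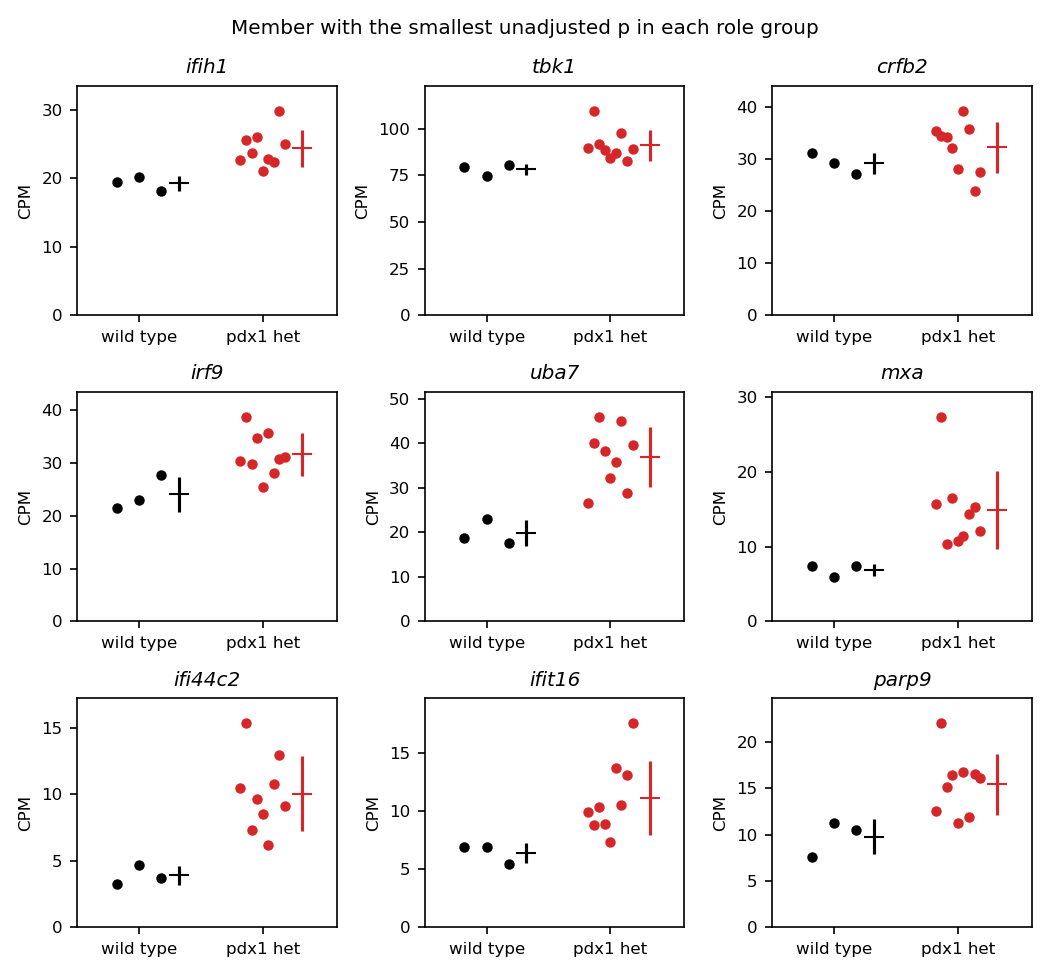
CPM in every sample for the gene with the smallest unadjusted p in each of the 9 role groups. Points are samples, and the bars beside them show the mean and SD of the 3 wild-type and 9 pdx1 heterozygous samples. The groups do not overlap for ifih1, tbk1, uba7, mxa, ifi44c2 and ifit16, and do overlap for crfb2, irf9 and parp9.

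Interferon transcripts themselves were scarce. The gene of interferon gamma, ifng1, had 0.234, 0.568 and 0.432 CPM in wild type and 0.214 to 2.12 CPM, with a median of 1.19, in heterozygous samples (log2 fold change 1.63 ± 0.58; edgeR, adjusted p = 0.794). Replicate 5 was the lowest and 8 of 9 heterozygous samples exceeded every wild-type sample. The type I interferon genes ifnphi1 and ifnphi2 overlapped between the genotypes, with log2 fold changes of 0.01 ± 0.39 and 0.47 ± 0.33. Over all 12 libraries, ifnphi3, ifnphi4 and ifng1r summed to 39, 18 and 6 counts, too few to compare.

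Other genes of the pathway were counted from further lists, also chosen with earlier results of these data known, so they give no independent support. Of 30 tested genes listed as interferon-induced outside the 41, 26 lay higher in the heterozygous group, against 51.7% of all genes tested. Their median log2 fold change was 0.61. By contrast 4 of 13 other sensing genes, 2 of 6 other receptor genes and 5 of 12 other IRF and STAT genes had higher levels, with medians of -0.15, -0.04 and -0.02. Of 18 regulators, 11 were higher, with a median of 0.11. None of these genes passed the threshold in edgeR. The smallest p belonged to epsti1, an interferon-induced gene, at 19.0, 24.5 and 21.2 CPM in wild type and 25.01 to 48.2 CPM in heterozygous samples (0.75 ± 0.18; edgeR, adjusted p = 0.514). The inhibitor gene of JAK kinases socs1b followed, at 5.61, 12.5 and 4.48 CPM against 11.8 to 37.7 CPM (1.76 ± 0.45; edgeR, adjusted p = 0.549). Also low in p were rnf213b, parp14rs1 and nlrc5, the gene of an activator of MHC class I in mammals, with log2 fold changes of 0.44, 0.56 and 0.47.

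Markers of leukocytes were measured beside these genes. The 15 T and NK cell markers summed to 69.6 to 90.4 CPM in wild type and 69.5 to 154 CPM in heterozygous kidneys, and 13 of 14 tested had higher levels. The 10 macrophage markers summed to 1448 to 2161 CPM and 1624 to 2809 CPM, with the top value in heterozygous replicate 2, and 6 had higher and 4 lower levels. Of the 2809 CPM in that replicate, 1577 were cd74a, an MHC class II chaperone gene. Log2 fold changes of the 10 macrophage markers ran from -0.96 for the receptor gene csf1rb to 0.86 for mpeg1.2. They were 0.002 for csf1ra and 0.71 for cd74a (chosen after their values were seen). For 8 neutrophil markers the sums were 1612 to 3762 CPM and 1513 to 3694 CPM, and 3 had higher and 5 lower levels. For 9 B cell markers they were 115 to 131 CPM and 96.1 to 135 CPM, and 3 had higher and 6 lower levels. None of these lists had a marker at 0 in all 12 libraries. The part of leukocyte number in the genotype values was not tested.

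The heterozygous kidneys also differed among themselves. The highest level over the lowest among the 9, with values under 3 counts set to 3, had a median of 2.08-fold over the 40 genes, close to the 2.02-fold of all genes tested. The mean centred log2 CPM ran from -0.20 in heterozygous replicate 5 to 0.62 in replicate 2. Replicate 2 was the highest of the 9 for 22 of the 40 genes, and for 18.7% of all genes. Replicate 5 was the lowest for 15 of the 40, and for 11.8% of all genes. Without replicate 2 the median range over the 40 genes was 1.76-fold.

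Ranges were widest among effectors. They reached 16.99-fold for isg15, 12.7-fold for mxb, 8.34-fold for rsad2, 7.62-fold for ifit8, 5.91-fold for gbp4 and 5.50-fold for ifi27.2. Of these, mxb, rsad2, ifit8 and gbp4 had few reads, with means of 0.697, 0.922, 1.80 and 1.01 TPM, which can widen a range. Ranges were below 1.5-fold for 6 of the 40 genes, ifih1, mavs, tbk1, crfb1, trim25 and ifi44g, against 19.2% of all genes tested. A range of at least 3-fold was found for 10 of the 40 genes, against 27.8% of all genes tested.

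The order of the heterozygous kidneys differed between effectors, a pattern described after the values were seen. For ifi27.2, replicates 3 and 6 were the lowest at 11.8 and 13.03 CPM, while replicates 4, 2 and 1 had 64.9, 53.2 and 49.6 CPM. The lowest heterozygous level of rsad2 was also in replicate 3, at 0.489 CPM, and the highest in replicate 4, at 4.08 CPM. By contrast gbp1 was high in replicates 3 and 6, at 131 and 148 CPM, and low in replicate 1, at 78.9 CPM. Levels of ifi44d were likewise 78.3 and 88.5 CPM in replicates 3 and 6 and 50.3 CPM in replicate 1. Replicate 9 had the highest gbp1 and ifi44d, at 153 and 96.4 CPM, with ifi27.2 at 40.1 CPM, below its median of 46.5. Replicate 8 had 89.0 and 56.6 CPM of gbp1 and ifi44d, below their medians of 123 and 78.3. Its ifi27.2 was at 48.0 CPM. Replicates 4 and 5 did not divide these genes in this way. Replicate 4 was also high in gbp1 and ifi44d, at 136 and 85.5 CPM. Replicate 5 was the lowest of the heterozygous samples in both, at 68.6 and 40.1 CPM, and was low in rsad2, at 0.534 CPM. Nor did isg15 follow ifi27.2 in replicate 6, where it had 14.9 CPM, above its heterozygous median of 13.8. The wild-type sample with the highest gbp1 and ifi44d, replicate 2, had the lowest isg15, ifi27.2, rsad2 and cmpk2 of the wild type. The libraries with at least 4332 CPM of ddc are heterozygous replicates 1, 3, 4, 6 and 9 and that wild-type sample. Of these, heterozygous replicates 3, 4, 6 and 9 had 131 to 153 CPM of gbp1 and 78.3 to 96.4 CPM of ifi44d. Replicate 1 had 78.9 and 50.3 CPM. Heterozygous replicates 2, 5, 7 and 8 had 68.6 to 123 CPM of gbp1 and 40.1 to 81.4 CPM of ifi44d. Whether ddc moves with these genes was not tested.

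**Figure D5:**
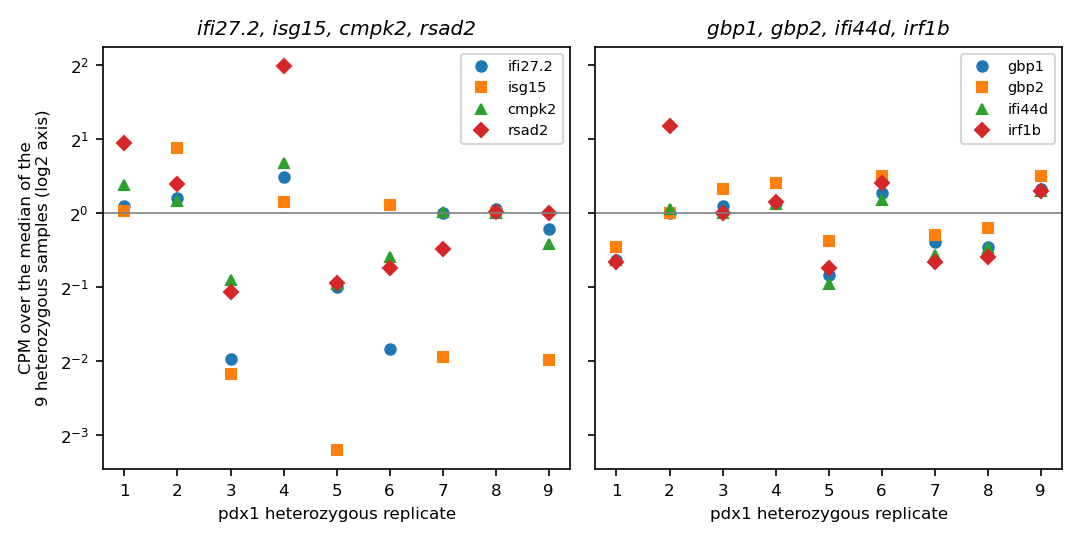
CPM of 8 genes in each of the 9 pdx1 heterozygous samples, divided by the gene's median over the 9, on a log2 axis. The left panel shows ifi27.2, isg15, cmpk2 and rsad2, with isg15 and cmpk2 lowest in replicate 5 and ifi27.2 and rsad2 lowest in replicate 3. The right panel shows gbp1, gbp2, ifi44d and irf1b, whose levels in replicates 3 and 6 are at or above their medians.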

How the data were processed

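Per the submitters' processing notes, the tools behind the 12 kidney libraries were Trim Galore 0.6.4 and kallisto, whose version reads 0.4.6, with the GRCz11 build. Of annotation, settings and strand use, nothing is given in the sources used here. The authors deposited estimated counts per Entrez gene, not normalized, and TPM values. Entrez identifiers were matched to symbols in RefSeq's GRCz12tu table, a different assembly, for 25812 of 30238 rows.

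Estimated counts were rounded and tested in R 4.3.3 with the edgeR 4.0.16 quasi-likelihood test on all 12 samples (filterByExpr minimum count 10, 23732 genes, TMM scaling, no covariate). The Benjamini-Hochberg adjustment ran over all genes tested, with a threshold of 0.05. Standard errors are the size of the log2 fold change over the square root of F. This step was tested on simulated data. Alternatives used DESeq2 1.42.0, limma 3.58.1 and sva 3.50.0.

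The 41 genes, the role groups and the other lists were chosen with earlier results of these data known. Wild-type values in every sample and the heterozygous range and median are given for the 2 genes with the smallest p and the gene with the highest mean TPM in each role group, apart from genes not reported here. Outside the 41, interferon genes and the 6 other pathway genes with the smallest p were named. A few genes enter the counts and medians but are not reported here by name or in figures.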

Additional observations from a re-analysis of the deposited data

Results flagged for a closer look

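In 6 of 42 measures examined over the 9 heterozygous kidneys, 1 sample lay far from the others. Chance flags about 1 in 20 groups of independent, normally distributed values. These measures share their libraries and were not checked for normality, so no excess over chance is shown. Heterozygous replicate 2 was the sample in 5 of the 6. Among the 9 it was also the highest for 18.7% and the lowest for 19.3% of all genes tested. Its level of jak1 was 218 CPM, with 124 CPM in the next sample, and that of tyk2 was 66.1 CPM, with 43.9 CPM in the next. For irf1b it had 746 CPM against 436 CPM in the next sample, for mxa 27.38 against 16.5 CPM, and for mxc 112 against 60.9 CPM. The sum of macrophage markers was also highest in this library, at 2809 CPM, of which cd74a made 1577. So was the sum of B cell markers, at 135 CPM. T and NK cell markers summed to 149 CPM there, below only heterozygous replicate 3 at 154 CPM. Its sum of kidney tubule markers was the lowest, at 4929 CPM. The part of any cell type in these levels was not tested. The other such value was rsad2 in heterozygous replicate 4, at 4.08 CPM against 1.98 CPM in the next sample.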

How the results depend on the processing

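Of 917 recomputed log2 fold changes of the 40 genes, 888 kept their direction and their side of the threshold. This count says little about stability, because no adjusted p in the main fit was below 0.337 and the fits share samples. It also covers changes in size. The lowest recomputed values were 0.081 for dhx58 and 0.13 for stat2, in place of 0.72 and 0.68. Under DESeq2, 60 genes were called in place of 1, and 4 of the 40 in place of 0. On log2(TPM + 0.1), 3 genes were called, and on both TPM scales 5 of the 40 did not overlap, in place of 9. Leaving out 1 sample gave 1 to 4 genes called (2 without heterozygous replicate 2, 4 without replicate 5), 0 to 0 of the 40 called, 9 to 15 without overlap, medians of 0.45 to 0.62 and median ranges of 1.757 to 2.097-fold. The ribosomal RNA covariate, which cannot be told apart from genotype, gave a median of 0.26. Under it jak1, irf2, irf3 and gbp4 changed sign, to -0.12, -0.064, -0.087 and 0.16. So did tyk2 and jak1 under limma-voom (-0.022 and -0.001866), on log2(TPM + 1) (-0.065 and -0.047) and on log2(TPM + 0.1) (-0.071 and -0.049). Leaving out 1 sample moved tyk2 between -0.093 and 0.044, jak1 between -0.0998 and 0.091, irf1a between -0.60 and 0.47, irf2 between -0.048 and 0.25, and mavs between -0.11 and 0.13. The cause was not tested.

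Replicate numbers 1 to 3 occur in both groups, but same-numbered samples did not deviate together (correlations -0.22, -0.16 and 0.10). With the replicate number as a block, 0 genes were called by edgeR (1674 at an unadjusted p under 0.05), the median of the 40 genes was 0.62, and mavs was at 0.024. The higher replicate numbers occur only in the heterozygous group, so the genotype difference in that fit rests on replicates 1 to 3 of each group. Genes with few counts, such as mxb, ifit8 and rsad2, are limited by depth, and 3 wild-type samples limit every comparison.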

Other observations

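The relatives of ifi27.2, chosen after their values were seen, also varied among the kidneys. Transcripts of ifi27.3 were at 0 counts in all 3 wild-type libraries. In heterozygous kidneys ifi27.3 had at most 7.45 CPM, in replicate 4, with a median of 0.286 CPM, and 4 of the 9 libraries were at or under the floor of 3 counts. The log2 fold changes of ifi27.1 and ifi27.4 were 1.51 ± 0.51 and 1.36 ± 0.49 (edgeR, adjusted p = 0.780 and 0.809), and 7 and 6 of 9 heterozygous samples exceeded every wild-type sample.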
